A study of Mus musculus with 9 samples.

Results

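Steroid hormones of the testis are made by Leydig cells, the endocrine cells between the seminiferous tubules, and 9 genes of that pathway were followed here during the differentiation of spermatogonial stem cells (SSCs) in vitro. The 9 genes, of 46078 counted, were chosen by name for their known roles, with earlier results of these data known. They are the cholesterol carrier Star, the enzymes Cyp11a1, Hsd3b1, Hsd3b6, Cyp17a1 and Hsd17b3, the electron donor Fdx1, the transcription factor Nr5a1 and the hormone Insl3. Steroid synthesis starts when STAR moves cholesterol into mitochondria, where CYP11A1, fed with electrons by ferredoxin (FDX1), cuts its side chain to give pregnenolone. HSD3B enzymes then make progesterone, CYP17A1 makes androstenedione, and HSD17B3 reduces it to testosterone. Germ cells are not known as a site of this pathway. In the fetal mouse testis it belongs to fetal Leydig cells, and HSD17B3 is provided there by Sertoli cells, the nurse cells of the tubules.

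The cells were EGFP-SSCs, 1 wild-type (WT) mouse line that carries green fluorescence, sampled at 0 h, 24 h and 48 h in 3 biological replicates each. At 0 h, the line was kept in normal culture on mitomycin C-treated mouse embryonic fibroblasts with glial cell line-derived neurotrophic factor, and the medium held β-estradiol and progesterone. For 24 h and 48 h, the line was mixed with an equal part of testicular somatic cells from busulfan-exposed mice 3 to 7 days old, and the medium held retinoic acid, BMP-4/7, activin A, testosterone and FSH. EGFP-positive cells were then sorted by flow cytometry, so steroid hormones were present in the medium of all groups and somatic testis cells only in the cultures of 24 h and 48 h. Whether the replicates are separate cultures is stated only as "bio rep", and p-values measure the spread between these libraries.

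Library totals ran from 16825251 to 22201892 counts. Levels are given as CPM (counts scaled to the size of each library), mean ± SD over 3 libraries, and levels of different genes are compared only as FPKM, which also divides by the exon length in kilobases. The label of the cells was checked against 10 germ cell markers, whose summed level was 3163 to 3959 CPM at 0 h, 3012 to 3210 after 24 h and 2905 to 3062 after 48 h, with none at 0 counts. Within that sum markers moved in opposite directions, with 2 rising and 2 falling after 24 h and 1 rising and 4 falling after 48 h. Uchl1 rose from 378 to 861 CPM at 24 h, while the genes of the GDNF receptor, Ret and Gfra1, fell from 643 to 47.0 and from 230.0 to 36.4. The label of the 9 genes as Leydig genes was checked against 11 other Leydig markers. Of these, Lhcgr, the receptor for luteinizing hormone that defines Leydig cells, had 0 counts in all 24 h libraries and at most 0.0996 CPM in any library, and Sult1e1 had 0 counts in all 9. Hao2 went from 0 counts at 0 h to 0.58 CPM at 24 h and 0.17 at 48 h and was too low to be tested. Of the 5 tested, 4 were called higher at 24 h and 3 at 48 h, beside 11.4% and 13.0% of all genes tested. No tested marker was called lower against 0 h. The other Leydig markers thus gave a mixed answer, and the 9 genes are called steroid and Leydig genes by their known roles only.

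Cyp11a1, Hsd3b1 and Nr5a1 were each over 20-fold higher at 24 h and at 48 h than at 0 h. Star rose less than 2-fold, and its change was past the threshold only at 48 h. Fdx1, already the most abundant member at 0 h, did not pass the test. Hsd3b6, Cyp17a1, Hsd17b3 and Insl3 were below 0.6 CPM in every library and did not pass the expression filter. In all, 3 of the 9 genes were called higher at 24 h and 4 at 48 h, and none of the 5 tested was called lower. Of all genes tested against 0 h, higher calls made up 11.4% after 24 h and 13.0% after 48 h, and lower calls 14.2% and 18.5%. The libraries of co-culture and 0 h did not overlap in 43.4% of all genes tested at 24 h and in 48.3% at 48 h. Both comparisons share the same 0 h libraries. In sorted bulk samples, fewer cells that carry an RNA and less of that RNA per cell cannot be told apart.

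**Figure D1:**
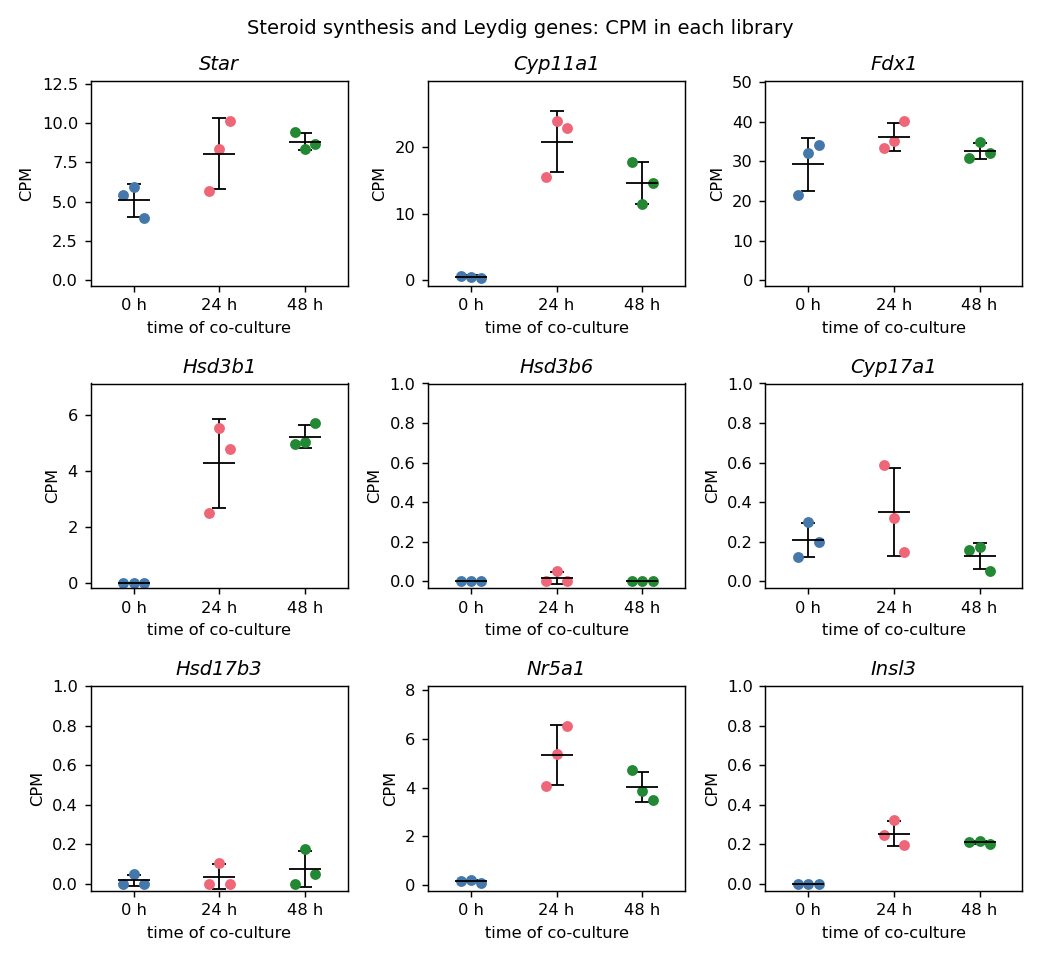
Level in CPM (y axis, a scale of its own for each gene) of the 9 genes in each library at 0 h, 24 h and 48 h of co-culture (x axis). Points are libraries, and lines with bars are the mean ± SD of 3. Cyp11a1, Hsd3b1 and Nr5a1 lie near 0 at 0 h only, while Hsd3b6, Cyp17a1, Hsd17b3 and Insl3 stay below 0.6 CPM throughout.

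Star (ENSMUSG00000031574, GRCm38 chromosome 8, 25806555 to 25815982, plus strand) encodes the carrier that delivers cholesterol to the inner mitochondrial membrane, the step at which hormones set the rate of the pathway. It was at 5.42, 5.95 and 3.93 CPM in the 0 h libraries, 5.69, 8.33 and 10.2 at 24 h and 9.42, 8.33 and 8.70 at 48 h. The 0 h and 24 h libraries overlapped, since 1 library of 24 h lay below the highest of 0 h, whereas all 48 h libraries lay above all of 0 h. Its log2 fold change was 0.67 ± 0.26 (SE) after 24 h and 0.79 ± 0.20 after 48 h, with Benjamini-Hochberg adjusted p-values of 0.106 and 0.0215 in the quasi-likelihood test of edgeR. With any 1 of the 48 h replicates left out, Star was no longer called, at edgeR adjusted p-values of 0.0861, 0.0610 and 0.0677. Over all alternatives its change at 48 h was 0.66 to 0.92, with adjusted p from 0.00483 to 0.0861.

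Cyp11a1 (ENSMUSG00000032323, chromosome 9, 58006411 to 58027023, plus strand) encodes the side-chain cleavage enzyme, the committed step of steroid synthesis. Its libraries held 11, 11 and 5 counts at 0 h, 317, 449 and 470 at 24 h and 340, 263 and 290 at 48 h, which corresponds to 0.493 ± 0.223, 20.8 ± 4.59 and 14.6 ± 3.19 CPM. All co-culture libraries lay far above all 0 h libraries, and the ranges of 24 h and 48 h overlapped. Its log2 fold change was 5.42 ± 0.34 (SE) after 24 h and 4.89 ± 0.35 after 48 h, with adjusted p-values by edgeR of 6.15e-05 and 8.57e-05. As a ratio of pooled counts, Cyp11a1 was 43.3-fold higher at 24 h than at 0 h, with a 95% interval of 29.6 to 65.9 from counting error only. Between 24 h and 48 h, its log2 fold change was -0.52 ± 0.19 (SE), which missed the threshold (edgeR, adjusted p = 0.0819). The lower level at 48 h was called by DESeq2 (-0.51, adjusted p = 0.0283), without the expression filter (-0.53) and without 24 h replicate 1 (-0.70), and adjusted p over all alternatives ran from 0.000265 to 0.271. Of the exon bases of Cyp11a1, 3.02% are shared with Gm17322, a non-coding gene on the same strand that went from 1.01 CPM at 0 h to 0.368 and 0.173.

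Fdx1 (ENSMUSG00000032051, chromosome 9, 51943306 to 51963556, minus strand) encodes ferredoxin, which passes electrons to mitochondrial P450 enzymes in many tissues. It was measured at 29.2 ± 6.73, 36.2 ± 3.54 and 32.5 ± 2.07 CPM at the successive times. The lowest library was 0 h replicate 1 with 21.6 CPM, and the other 8 libraries lay between 30.8 and 40.2. Neither log2 fold change, 0.32 ± 0.18 (SE) after 24 h and 0.16 ± 0.18 after 48 h, was called (edgeR, adjusted p = 0.2504 and 0.565). Without 0 h replicate 1, the second of these turned to -0.02.

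Hsd3b1 (ENSMUSG00000027871, chromosome 3, 98852194 to 98859794, minus strand) and Hsd3b6 (ENSMUSG00000027869, chromosome 3, 98805504 to 98814443, minus strand) are neighbouring copies of the gene for 3β-hydroxysteroid dehydrogenase, which turns pregnenolone into progesterone. Hsd3b1 is the form of fetal Leydig cells, and Hsd3b6 is added in adult ones. Hsd3b1 had 0 counts in all 0 h libraries, 51, 104 and 98 at 24 h and 95, 116 and 113 at 48 h. No library of co-culture approached 0. In CPM, Hsd3b1 was at 4.28 ± 1.59 at 24 h and 5.24 ± 0.413 at 48 h. Set against 3 counts per 0 h library, the limit that a count of 0 allows, Hsd3b1 was at least 26.5-fold higher after 24 h of co-culture. The same bound after 48 h was at least 32.4-fold higher, and the adjusted p-values by edgeR were 0.00111 and 0.000175. Between 24 h and 48 h, its log2 fold change of 0.28 ± 0.26 (SE) was not called (edgeR, adjusted p = 0.470). Hsd3b6 had 1 count in a single 24 h library and 0 in the other 8.

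The longest transcripts of Hsd3b1 and Hsd3b6 were identical at 77.8% of aligned positions. Of all windows of 75 bases in the Hsd3b1 transcript, 1.40% occur unchanged in another gene, the pseudogene Gm12431, which had 0 counts in all libraries. For Hsd3b6, 7.93% of windows occur in Hsd3b2 and Hsd3b3. Of the 5 other Hsd3b genes, only Hsd3b7, which acts on bile acid precursors, passed the filter. It was at 4.603 ± 0.653, 4.10 ± 0.904 and 4.69 ± 0.168 CPM and was called in no comparison. Hsd3b2, Hsd3b3 and Hsd3b4 had at most 4 counts in any library, and Hsd3b5 had 0 in all. In co-culture, reads on the Hsd3b family other than Hsd3b7 thus came almost wholly from Hsd3b1.

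The 250 bases before the start of both genes are shown because Hsd3b1 was counted in every co-culture library and Hsd3b6 had a single count. They come from RefSeq (GRCm38.p6, minus strand), written 5′ to 3′, for Hsd3b1 at chr3:98859795-98860044 and for Hsd3b6 at chr3:98814444-98814693. Capitals mark TCAAGG, in either orientation, a core of the sites that the product of Nr5a1 is known to bind.
Hsd3b1: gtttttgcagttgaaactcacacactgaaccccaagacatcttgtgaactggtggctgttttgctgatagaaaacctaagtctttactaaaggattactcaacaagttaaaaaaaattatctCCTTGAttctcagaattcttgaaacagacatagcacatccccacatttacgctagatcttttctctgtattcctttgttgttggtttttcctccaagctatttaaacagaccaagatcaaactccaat
Hsd3b6: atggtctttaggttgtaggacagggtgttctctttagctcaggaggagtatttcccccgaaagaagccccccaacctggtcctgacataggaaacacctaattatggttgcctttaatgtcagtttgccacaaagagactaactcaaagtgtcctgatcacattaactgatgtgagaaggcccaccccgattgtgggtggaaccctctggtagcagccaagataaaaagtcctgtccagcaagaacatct
The pair was identical at 46.4% of aligned positions. Windows from 250 bases before to 50 after a start were held for 6 of the 9 genes, and TCAAGG, chosen after these windows had been seen, was searched on both strands of each. Hsd3b1 held 2 matches, at positions -128 and 11 from the start, and Hsd3b6 and Hsd17b3 held 0. Fdx1, whose level did not pass the test, also held 2, and Insl3 held 1. Of 2 windows of Cyp11a1, 1 held a match, at position 3, in a window whose bases before the start are exonic in the GENCODE annotation. Among 32851 windows of this length, 14.4% held TCAAGG, and a match is a description of the sequence only. AGGTCA, chosen in the same way and held by 16.3% of all windows, was found only in that Cyp11a1 window, and TATAA, held by 24.9%, in those of Cyp11a1, Insl3 and Fdx1. The matches in Cyp11a1 (chr9:58014945-58014968, plus strand) and Insl3 (chr8:71689105-71689128, plus strand) are shown with their flanks.
Cyp11a1: ctctcttagCCTTGAgctggtggt
Insl3: gagaggactTCAAGGtcccaagct

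Cyp17a1 (ENSMUSG00000003555, chromosome 19, 46667165 to 46673172, minus strand) encodes the enzyme that turns C21 steroids into androgens and is a defining gene of steroid-making Leydig cells. It had 2, 6 and 4 counts at 0 h, 12, 6 and 3 at 24 h and 3, 4 and 1 at 48 h. The 3 groups overlapped. The ratio of pooled counts of 24 h to 0 h was 1.65, with a 95% counting interval of 0.777 to 3.69, and the value of Cyp11a1 lies outside that interval. Of the 21 counts at 24 h, 12 came from 1 library. Without the expression filter, edgeR did not call Cyp17a1 in any of the 3 comparisons (adjusted p = 0.595, 0.642 and 0.342). Hsd17b3 (ENSMUSG00000033122, chromosome 13, 64058266 to 64089230, minus strand), the enzyme of the last step to testosterone, had 0, 1 and 0 counts at 0 h, 0, 2 and 0 at 24 h and 0, 4 and 1 at 48 h. The ratio of its pooled counts of 48 h to 0 h was 4.55 with an interval of 0.509 to 215, so no difference was detectable at this depth.

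Insl3 (ENSMUSG00000079019, chromosome 8, 71689214 to 71690575, plus strand) encodes insulin-like peptide 3, a hormone of Leydig cells that guides the descent of the testis. It had 0 counts in each 0 h library, 5, 6 and 4 at 24 h and 4, 5 and 4 at 48 h. Its co-culture libraries all lay above those of 0 h, at 0.254 ± 0.0631 and 0.210 ± 0.00734 CPM. Against 3 counts per 0 h library, the mean level of Insl3 was 1.57-fold higher after 24 h and 1.296-fold higher after 48 h. The counting error of its own 4 to 6 counts per library is not part of these values. Without the expression filter, edgeR called it after 24 h (adjusted p = 0.0367) and not after 48 h (adjusted p = 0.0524). Of its exon bases, 64.8% are also exons of Jak3 on the same strand, and Jak3 went from 1.56 ± 0.306 CPM at 0 h to 5.88 ± 0.713 and 3.38 ± 0.196. Reads on the shared bases may have been counted for Insl3, for Jak3 or for neither, which was not tested. If they were not counted for Insl3, its CPM and FPKM are too low.

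Nr5a1 (ENSMUSG00000026751, chromosome 2, 38692656 to 38714542, minus strand) encodes steroidogenic factor 1, a nuclear receptor that switches on Star, Cyp11a1, Hsd3b and Cyp17a1 genes in gonads and adrenal cortex and is also expressed by Sertoli cells. It had 3, 4 and 2 counts at 0 h, 83, 101 and 134 at 24 h and 90, 89 and 69 at 48 h. In CPM, this was 0.162 ± 0.0540, 5.34 ± 1.23 and 4.02 ± 0.625. All co-culture libraries lay above all 0 h libraries. Its log2 fold change was 5.01 ± 0.37 (SE) after 24 h and 4.59 ± 0.35 after 48 h, with adjusted p-values by edgeR of 0.000107 and 0.000101. The ratio of pooled counts of 24 h to 0 h was 33.4, with a counting interval of 17.4 to 73.7. Between 24 h and 48 h, the log2 fold change of -0.42 ± 0.21 (SE) was not called (edgeR, adjusted p = 0.186).

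**Figure D2:**
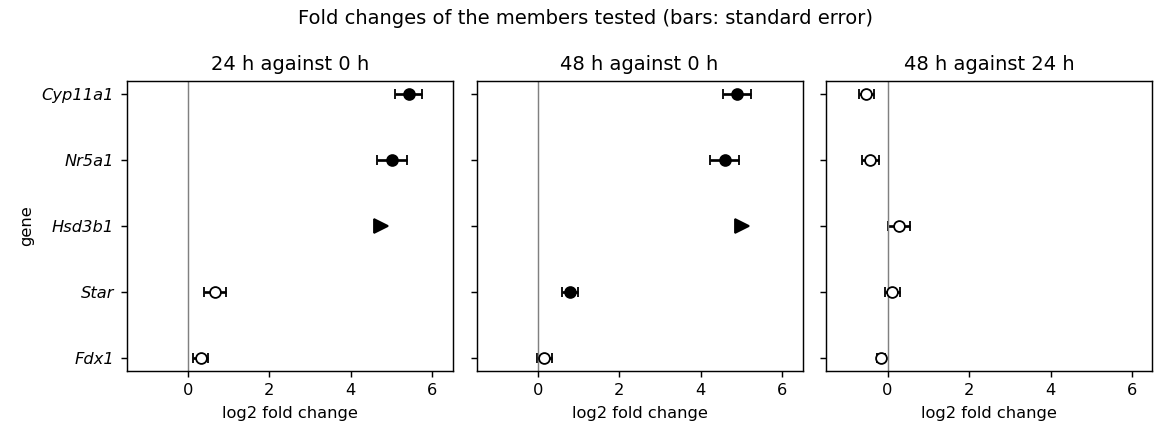
Log2 fold change (x axis) of the 5 genes tested (y axis) in the 3 comparisons of time points, with a standard error derived from edgeR's test as bars. Filled symbols have an adjusted p of up to 0.05, and triangles give the lower bound of Hsd3b1 against 3 counts per 0 h library. Cyp11a1 and Nr5a1 lie between 4.59 and 5.42 in both comparisons with 0 h, and no symbol is filled for 48 h against 24 h.

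Between 24 h and 48 h, edgeR called 0 of the 9 genes, 1 (Cyp11a1) had an unadjusted p under 0.05, and DESeq2 called 1. Of all genes tested, 21.3% were called in that comparison, 8.61% higher and 12.7% lower, and 39.6% did not overlap. All 5 members tested overlapped. Within libraries, the ratio of Hsd3b1 to Cyp11a1 in CPM was 0.161, 0.232 and 0.209 at 24 h and 0.279, 0.441 and 0.390 at 48 h. The ratio of Star to Cyp11a1 was 0.385 ± 0.0504 and 0.618 ± 0.102 at the 2 times, and that of Nr5a1 to Cyp11a1 was 0.257 ± 0.0303 and 0.280 ± 0.0520. Neither the Hsd3b1 nor the Star ratio overlapped between 24 h and 48 h, while the Nr5a1 ratio did. These ratios share the same Cyp11a1 values, and the share of all gene pairs without overlap was not computed. The two-sided exact permutation test gave p = 0.1 for the ratios of Hsd3b1 and of Star, the smallest that 3 against 3 libraries allow, and 0.6 for that of Nr5a1. After Benjamini-Hochberg adjustment over 6 ratios these exact values were 0.12, 0.12 and 0.6, and this test could not pass the threshold of 0.05.

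Per length, Fdx1 was the most abundant member at each time, at 9.42 ± 2.17, 11.7 ± 1.14 and 10.5 ± 0.668 FPKM. At 0 h, Star followed with 1.24 ± 0.254 FPKM, and the other 7 were at 0.103 FPKM or less. Among these 7, from Cyp11a1 down, neighbours in the order overlapped in their libraries. At 24 h, Cyp11a1 came second with 4.33 ± 0.957 FPKM, above Hsd3b1 (2.31 ± 0.856), Star (1.96 ± 0.545) and Nr5a1 (1.26 ± 0.291). Hsd3b1, Star and Nr5a1 were neighbours whose libraries overlapped, whereas Cyp11a1 lay apart from Hsd3b1. At 48 h, Cyp11a1 (3.04 ± 0.664 FPKM) and Hsd3b1 (2.83 ± 0.223) overlapped, and Star (2.14 ± 0.134) and Nr5a1 (0.948 ± 0.147) followed without overlap. Insl3 was at 0.407 and 0.336 FPKM at 24 h and 48 h, below Nr5a1 and above Cyp17a1, Hsd17b3 and Hsd3b6, which were at 0.127 FPKM or less. With the longest transcript as gene length, Cyp11a1 was at 6.06 and 4.25 FPKM and Nr5a1 at 1.78 and 1.34, while Hsd3b1 stayed at 2.31 and 2.83. The overlaps above, among them that of Cyp11a1 and Hsd3b1 at 48 h, hold for the union of exons as length. They were not computed with the longest transcript and may differ there.

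The other genes of steroid synthesis were followed as 55 genes in 5 lists. At 24 h, 43 of them were tested against 0 h, with 11 called higher, 10 lower and a median log2 fold change of 0.09. At 48 h, 8 of 41 tested were higher and 11 lower, with a median of 0.03. Of all genes tested, 25.5% and 31.6% were called in either direction, with medians of 0.01 and 0.02. Between 24 h and 48 h, 1 was higher and 10 lower of 43 tested, beside 8.61% higher and 12.7% lower of all genes tested, and a fit of all 9 libraries called 0 of them. In either direction, 21 of the 43 pathway genes tested at 24 h and 19 of the 41 at 48 h were called, beside the 25.5% and 31.6% above. For the single lists that follow, higher calls over all genes tested were 11.4% at 24 h and 13.0% at 48 h, and lower calls 14.2% and 18.5%. The medians cover tested genes only. A median near 0 over genes called in both directions does not mean that they were unchanged.

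Of 13 genes that supply cholesterol, all passed the filter, 2 rose and 4 fell at 24 h, and 1 rose and 4 fell at 48 h. Vdac1, a channel of the outer mitochondrial membrane, fell by 0.81 and by 1.17 on the log2 scale. Stard4, a cytosolic relative of STAR, fell by 0.68 and by 0.90, and Scarb1, the receptor for high-density lipoprotein, fell by 0.45 and by 0.77. Stard5, another relative of STAR, rose by 0.74 at 24 h. Tspo, an outer mitochondrial membrane protein once held to be needed for cholesterol import, was at 12.03 ± 2.51, 17.97 ± 2.33 and 13.7 ± 0.880 CPM and was called only between 24 h and 48 h (log2 fold change -0.40).

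None of the 6 electron transfer partners rose, and 2 fell at both times. Fdxr, the reductase that loads FDX1, was at 14.4 ± 1.75, 19.3 ± 1.58 and 15.9 ± 1.24 CPM, and its changes of 0.43 and 0.14 on the log2 scale were not called. Por, the reductase that serves CYP17A1, was also not called, at -0.19 and -0.23. Cyb5a, whose product raises the lyase activity of CYP17A1, fell by 0.88 and by 0.92 on the log2 scale, and its homologue Cyb5b fell by 0.60 and by 0.70.

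Among 16 other steroid enzymes, 7 were too low to be tested at 24 h and 8 at 48 h. Hsd17b12, an enzyme of fatty acid elongation that also acts on estrone, fell from 203 ± 19.9 CPM to 68.7 ± 7.27 and 55.1 ± 3.97, a log2 fold change of -1.55 and then -1.88 against 0 h. Cyp11b1, the last enzyme of corticosterone synthesis in the adrenal, rose from 0.116 ± 0.115 CPM to 1.06 ± 0.495 at 24 h (log2 fold change 3.21) and from 24 h to 48 h fell by 2.29. Hsd17b1, which makes estradiol, reached 1.03 ± 0.374 CPM at 48 h from 0.331 ± 0.0752 (log2 fold change 1.60). The aromatase gene Cyp19a1 was at most 0.304 CPM in any library. Srd5a1, a reductase of testosterone, was not called, with log2 fold changes of -0.25 and -0.31. Akr1c14, an enzyme of androgen breakdown, had 0 counts at 0 h and 0.354 to 1.15 CPM at 48 h. Its level at 48 h was at least 4.63-fold higher than at 0 h, and the gene was too low to be tested.

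Of 15 regulators of steroid genes, 8 rose and 3 fell at 24 h, and 6 rose and 4 fell at 48 h. Gata4, which acts with NR5A1 on steroid gene promoters, rose from 1.29 ± 0.582 CPM to 13.8 ± 1.82 and 17.1 ± 0.595, which is 3.44 and 3.74 on the log2 scale. Nr2f2, a nuclear receptor of interstitial progenitor cells, rose by 3.66 and 4.08. Tcf21, a factor of interstitial mesenchyme that represses Nr5a1, had 0 counts at 0 h and was at least 13.8-fold higher after 24 h of co-culture and at least 22.4-fold higher after 48 h. Wt1, which acts upstream of Nr5a1 in the gonad, rose by 1.99 and 2.34. Nr5a2, the closest relative of Nr5a1, moved the other way, from 36.4 ± 6.77 CPM at 0 h to 5.89 ± 0.428 and 5.40 ± 0.899, or -2.61 and -2.75 on the log2 scale (edgeR, adjusted p = 7.55e-05 and 8.37e-05). Nr0b1, a repressor of NR5A1, was too low to be tested.

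**Figure D3:**
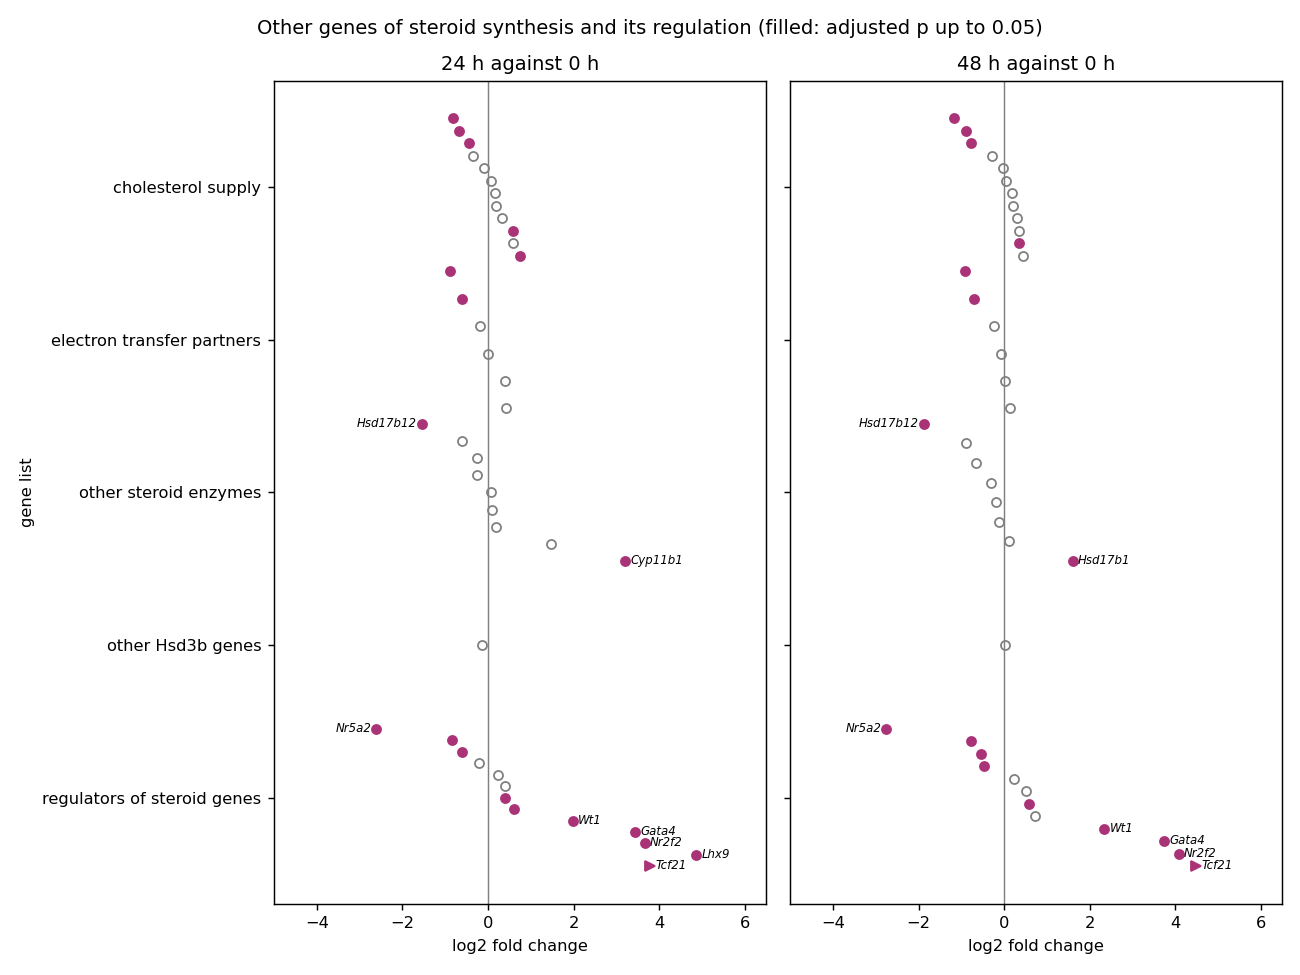
Log2 fold change (x axis) of tested genes of the 5 pathway lists (y axis) at 24 h and 48 h against 0 h. Filled symbols have an adjusted p of up to 0.05, called genes beyond 1.3 in either direction are named, and triangles give the lower bound of Tcf21. Lhx9 had at most 1 count in any 0 h library, so its place is a fitted value. Nr5a2 and Hsd17b12 lie farthest to the left, and the regulators Gata4, Nr2f2, Tcf21 and Lhx9 farthest to the right.

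Many markers of somatic testis cells rose in the same libraries, and some of them are on more than 1 list. Over all genes tested, 11.4% were called higher at 24 h and 13.0% at 48 h, and 14.2% and 18.5% lower. Their part in the changes of Cyp11a1, Hsd3b1, Nr5a1 and Star was not tested. Of 11 other Leydig markers, 5 were tested, of which 4 rose at 24 h and 3 at 48 h, with a summed level of 40.3 to 53.8 CPM at 0 h, 105 to 127 after 24 h and 139.5 to 166 after 48 h. The 4 were Inha (log2 fold change 4.97), which Sertoli cells also express, Nr2f2, Thbs2 (1.43) and Pdgfra (0.72), which interstitial mesenchyme shares. The other tested marker, Hsd11b1, had negative log2 fold changes against 0 h, -0.60 at 24 h and -0.89 at 48 h, and neither was called. At 48 h Pdgfra was not called (0.41), between 24 h and 48 h it fell (-0.31), and Thbs2 made up 84.0 of the mean sum of 150.1 CPM. Lhcgr and Cyp17a1, which define Leydig cells, had at most 2 and 12 counts in any library. Insl3 had 4 to 6 counts in each co-culture library, and reads on the exon bases it shares with Jak3 may not have been counted for it. Hsd17b3, provided by Sertoli cells in the fetal testis, had at most 4 counts.

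Of 15 Sertoli markers, 8 rose and 5 fell at 24 h, and 8 rose and 3 fell at 48 h. Gata4, Wt1 and Inha, which rose at both times, are also on lists above, so their rises are not separate results. The summed level of the Sertoli markers was 77.3 to 86.6 CPM at 0 h, 102 to 165 after 24 h and 139.8 to 158.5 after 48 h. Of the mean sum, Clu made up 33.3 of 130.3 CPM at 24 h and 56.2 of 151.8 at 48 h. Amh, the hormone of immature Sertoli cells and a known target of NR5A1, went from 0.133 ± 0.125 CPM to 5.79 ± 2.16 and 0.828 ± 0.347, a log2 fold change of 5.46 after 24 h and of -2.83 from 24 h to 48 h. Cldn11 rose by 3.46 and 3.83. Sox9, which defines Sertoli cells, fell by 0.80 at 24 h, and Fshr, the receptor for follicle-stimulating hormone, had at most 2 counts in any library.

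Markers of myoid cells, the muscle-like cells around the tubules, went from a sum of 21.9 to 26.5 CPM at 0 h to 174 to 251 at 24 h and 306 to 376 at 48 h, with 7 of 8 called higher at both times and 0 counts for none. Acta2 and Actg2 rose most among them, by 5.63 and 5.14 at 24 h. Stromal markers went from 733 to 890 CPM to 3002 to 3452 and 4199 to 4579, with 6 of 9 higher at 24 h and 8 at 48 h. Of 7 endothelial markers tested, 2 (Tek and Tie1) rose at both times, and 3 fell at 24 h and 4 at 48 h. Their sum was 69.9 to 94.2 CPM at 0 h, 44.8 to 46.5 after 24 h and 30.9 to 34.95 after 48 h. Of 3 macrophage markers tested, Csf1r (1.90) and Cd14 (1.43) rose at 24 h and Cd68 fell by 1.42, and at 48 h Cd14 rose and Cd68 fell. The macrophage sum was 16.03 to 17.2, 6.999 to 11.96 and 7.75 to 8.35 CPM at the successive times, of which Cd68 made up 15.7 of a mean of 16.8 CPM at 0 h. Emcn, C1qa and C1qc had at most 4 counts in any library. Adrenal cortex markers summed to 0.0996 to 0.436 CPM at 0 h, 1.71 to 2.30 after 24 h and 0.434 to 0.911 after 48 h. Of 5, 2 were tested at 24 h and 0 at 48 h against 0 h. Cyp11b1 was called higher at 24 h and made up 1.06 of the mean sum of 1.91 CPM, and Akr1b7 was not called (2.27). Cyp21a1 and Mc2r, which define that tissue, had at most 8 counts and 1 count in any library.

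From 24 h to 48 h, edgeR called 5 of 8 myoid and 8 of 9 stromal markers higher, beside 8.61% of all genes tested. Per 100 CPM of myoid markers, Cyp11a1 was at 8.92, 11.4 and 9.14 CPM at 24 h and at 4.73, 3.74 and 3.92 at 48 h. Per 100 CPM of stromal markers it was at 0.654 ± 0.121 and 0.336 ± 0.0591 CPM, and per 100 CPM of Sertoli markers at 16.2 ± 2.85 and 9.58 ± 1.61. The libraries of the 2 times did not overlap in any of these 3 ratios, which share the same Cyp11a1 values and are not separate results. Of all single genes tested, 39.6% did not overlap, and no such share was computed for ratios. Each had p = 0.1 in the two-sided exact permutation test, the smallest possible here, and 0.12 after adjustment over the 6 ratios.

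**Figure D4:**
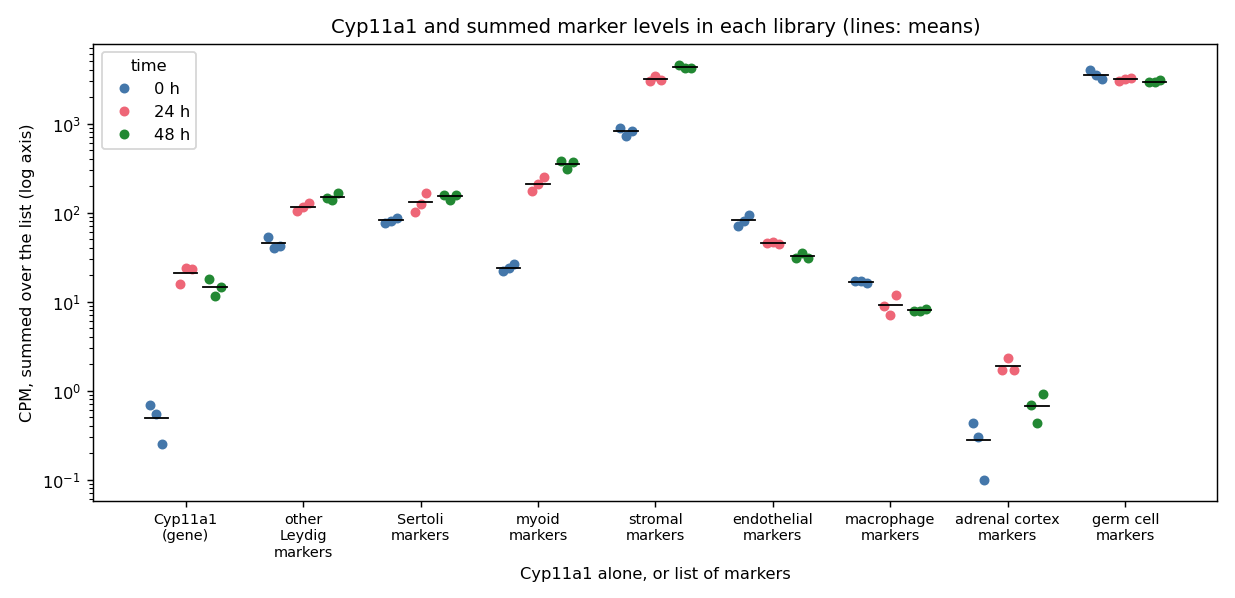
CPM of Cyp11a1 and CPM summed over each list of markers (y axis, log scale) in each library, by list (x axis) and time (colour). Points are libraries and lines are means of 3. Myoid and stromal sums rise at 24 h and again at 48 h, whereas Cyp11a1 is at 20.8 CPM at 24 h and 14.6 at 48 h, and germ cell markers lie between 2905 and 3959 CPM.

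The genes whose course was most like that of Cyp11a1 were sought among 12610 genes with a mean of at least 5 CPM at 1 time. The measure was the root mean square difference in log2 CPM over the 9 libraries, with a prior count of 2 and after centring each gene on its own mean, and its median over these genes was 2.36. The nearest was Inha (0.339), the α subunit of the inhibins, followed by Nr5a1 (0.420). Then came Ccn4, Trim58, Kit, Inhba, Hsd3b1, Aldh1a1, Pdlim3 and Col15a1, at 0.454 to 0.648. Kit, which encodes a receptor of differentiating spermatogonia, had a mean of 567 CPM at 24 h, and Inhba encodes a subunit of activin A. Hsd3b1 had 0 counts at 0 h, so its distance depends on the prior count, and it and Nr5a1 reached 5 CPM at 1 time only. At 0 h, Cyp11a1 had 5 to 11 counts per library and Nr5a1 2 to 4, so the prior count also affects the distances from Cyp11a1, that of Nr5a1 among them. Star had rank 992 and Fdx1 rank 3987.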

How the data were processed

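The 9 libraries of EGFP-SSCs were used, 3 per time point. The authors deposited raw counts per Ensembl gene, and the submitters' processing notes name fastp, HISAT2, featureCounts and GRCm38. Versions, annotation release and strand setting are not given in the sources used here. Symbols, positions and exon lengths came from GENCODE M21 (GRCm38), which held 45229 of 46078 identifiers.

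Each pair of time points was tested on its 6 libraries with filterByExpr, TMM and edgeR 4.0.16 (two-sided quasi-likelihood test, R 4.3.3), with Benjamini-Hochberg adjustment over all genes tested and a threshold of 0.05. This filter left 5 of the 9 genes. The SE of a log2 fold change was derived as its absolute value divided by the square root of edgeR's F statistic. CPM were TMM-normalized, and FPKM used the union of exons. A group at 0 counts was set to 3 counts per library, which covers counting error of that group only. Alternatives were DESeq2 1.42.0, other scalings and filters, 1 fit over all libraries, a replicate block and leaving out each library. The procedure was tested on simulated data. Figures were drawn with matplotlib 3.10.9.

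The 9 genes, the lists and the tests were chosen with earlier results of these data known. Named list genes are called ones, up to 4 per list and comparison with the largest change and a mean of at least 1 CPM, and markers at 0. Other list genes (such as Nr5a2, Wt1, Tspo, Fdxr, Por, Hsd3b7, Srd5a1, Cyp19a1, Nr0b1, Akr1c14, Sox9, Hsd11b1, Akr1b7) were named after their values were seen. Star, Cyp17a1 and Nr5a1 had no promoter window in the RefSeq table. Of the pathway list genes counted, 2 are not reported here by name or in the plot.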

Additional observations from a re-analysis of the deposited data

How the results depend on the processing

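Of 195 fold changes of the 5 genes tested, recomputed under alternatives, 186 kept their direction and their side of the threshold. Hsd3b6, Cyp17a1, Hsd17b3 and Insl3 are not in this tally. Without the filter, Insl3 was also called at 24 h, which made 4 of the 9 genes in place of 3. The calls of Cyp11a1, Hsd3b1 and Nr5a1 against 0 h held in each. Reversed were 2 changes that were not called, Star from 24 h to 48 h without 24 h replicate 1 (-0.08, and up to 0.34 with another library left out) and Fdx1 at 48 h without 0 h replicate 1 (-0.02, likewise up to 0.31). From 24 h to 48 h, 1 of the 9 genes (Cyp11a1) was called without the filter and by DESeq2 in place of 0. With 1 library left out, 3 of the 9 genes were called at 24 h in all 6 fits, 3 to 4 at 48 h and 0 to 1 from 24 h to 48 h. For all genes the range was 2607 to 6023 at 24 h, 3471 to 7116 at 48 h and 1857 to 4356 from 24 h to 48 h, against 4494, 5602 and 3732 with all libraries. Counts moved by over 1.5 times at 24 h without 0 h replicate 2 (2931) or 24 h replicates 1, 2 or 3 (2610, 2607, 2806), at 48 h without 48 h replicates 1 or 3 (3471, 3624), and from 24 h to 48 h without 24 h replicate 1 (2044) or 48 h replicates 1 or 3 (1857, 2255). With all 9 libraries in 1 fit, 1043 genes and 0 of the pathway genes were called from 24 h to 48 h, against 3732 and 11. For the 55 pathway genes, 14 to 26 were called at 24 h, 14 to 22 at 48 h and 4 to 10 from 24 h to 48 h with 1 library left out, the last with 6, 4 and 7 without 24 h replicate 2 and 48 h replicates 1 and 3. The cause of these shifts was not tested.

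The same replicate numbers did not pair the libraries, with correlations of same-numbered deviations from the group means of -0.280 to 0.196. With the replicate block, 7 pathway genes in place of 11 were called from 24 h to 48 h, and the 48 h call of Star was lost (0.81, adjusted p = 0.0516). With library sizes unscaled by TMM, the median log2 fold change over all genes went from 0.01 to 0.12 at 24 h and from 0.02 to 0.13 at 48 h, and higher genes made up 57.1% and 52.8% of calls in place of 44.5% and 41.2%. No call of the 9 genes changed. Depth limits Hsd3b6, Cyp17a1, Hsd17b3 and Insl3, whose libraries held at most 12 counts.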
